A study of Sus scrofa with 35 samples.

Results

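The collagens examined here are 10 genes of muscle connective tissue, and they were taken as every non-control probe whose gene name in the scanner files is COL1A1, COL1A2, COL3A1, COL4A1, COL4A2, COL5A1, COL5A2, COL6A1, COL6A3 or COL15A1. These 10 genes, of 11579 genes with a symbol on the array, were represented by 32 probes, of which 31 passed the filter on dim probes. The probe that did not pass was 1 of 4 probes of COL5A1, well above background on 15 arrays. Each gene kept at least 1 probe, and its brightest kept probe, used below as the value of the gene, was well above background on all 35 arrays.

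The tissue was longissimus dorsi, a back muscle, taken from castrated male growing pigs of the Creole breed, the Large White (LW) breed and their F1 cross, which entered the climatic room at 11 weeks of age. Pigs were held at thermoneutrality (TN, 24 °C per the labels) or under heat stress (HS, 30 °C per the labels, but 32 °C per the growth protocol, which gives 5 days, and the study methods, which give 4 or 5 days). There were 6 arrays per group, except for F1 HS with 5, and every array carried the RNA of 1 pig. Per the study methods, each breed was drawn from 3 blocks of 4 littermates, and the TN pens were emptied for slaughter before the room was warmed and the HS pens afterwards, so that slaughter day, age and pen cannot be told apart from temperature. Of 13 skeletal muscle markers listed, 12 were measured. All of them were well above background on all 35 arrays, and their mean log2 intensity per array ranged from 18.02 to 18.44.

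Collagen molecules are wound from 3 chains, each with glycine recurring at a fixed spacing along its helical stretch. Type I collagen, made of the COL1A1 and COL1A2 chains, and type III collagen, made of COL3A1 chains, form the banded fibrils of the sheaths around muscle bundles and fibres, and type V collagen (COL5A1, COL5A2) lies inside those fibrils and helps to set their width. Type IV collagen (COL4A1, COL4A2) is the network of the basement membrane that coats each muscle fibre and capillary. Type VI collagen (COL6A1, COL6A3) forms beaded filaments next to that membrane, and COL15A1 codes for a chain that ties the membrane to the matrix. Most fibrillar and type VI chains of muscle are made by fibroblasts. In bulk tissue, a lower signal from fewer cells of a type and from less RNA per cell cannot be told apart.

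The glycine repeat can be read in some probes. The 3 member probes below hold glycine codons (GGN, in capitals) spaced every 9 bases, at least 4 in a row, and are shown because they lie in the helical part of the message. The sequences are written 5′ to 3′ as in the scanner files.
COL1A2: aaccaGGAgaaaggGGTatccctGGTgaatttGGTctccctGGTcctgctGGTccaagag
COL4A1: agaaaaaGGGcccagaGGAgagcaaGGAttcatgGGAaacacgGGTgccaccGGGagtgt
COL6A3: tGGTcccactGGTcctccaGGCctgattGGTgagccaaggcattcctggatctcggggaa
Such a run was found in 52 of 60305 non-control probes (0.0862%), and 10 of the 29 that carry a symbol are named for a collagen. The reverse complement of 32 probes held such a run, and of no member probe. The COL6A3 run in capitals stops after 4 codons in the printed strand. Further GGN triplets, left in lower case, follow every 9 bases but shifted out of the frame of the run. A further COL6A3 probe, described in the files as part of the coding sequence of the N-terminal domain, and the COL5A1 probe used below carry no such run and are printed because results turn on them.
COL6A3 (N-terminal domain): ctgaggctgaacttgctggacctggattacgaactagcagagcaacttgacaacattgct
COL5A1: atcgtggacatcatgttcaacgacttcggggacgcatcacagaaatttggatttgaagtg
Probes of a gene are not always separate readings. The 2 COL1A1 probes share 34 bases, and 2 of the 10 COL6A3 probes have the same 60 bases under different names. The identical pair differed by 0.30 in mean log2 intensity, with an SD of the difference of 0.07 over 35 arrays, so the level of a spot depended on more than its sequence, whereas the order of arrays was close to the same in both (Pearson r = 0.986). For this reason levels of different probes were compared only to pick the brightest kept probe of each gene.

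To ask whether muscle collagens changed with ambient temperature in the muscle of these pigs, the 17 HS arrays were set against the 18 TN arrays with breed in the model. COL6A3, COL3A1 and COL5A1 rose in HS, and no collagen of the 10 fell. That is 3 of 10 genes called higher (adjusted p under 0.05, limma with Benjamini-Hochberg adjustment over all kept probes), where 7.73% of the 41517 probes tested were called higher, 8.30% lower and 16.0% in either direction. The balance of higher and lower calls over the array moved with the scaling: 48.2% of calls were higher with quantile normalisation, 27.2% with 75th percentile scaling, 56.7% with median scaling and 87.2% with spike-in scaling. The log2 difference was above 0 for 8 of 10 collagens, with a median of 0.24, against a median of -0.02 over all probes tested.

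COL6A3, the type VI chain, spread from 11.90 to 13.47 (median 13.15) in log2 intensity on the 18 TN arrays, and from 13.00 to 14.03 (median 13.40) on the 17 HS arrays. The ranges overlapped, but each of the 17 HS arrays lay above the TN mean of its own breed. The difference was 0.40 (SE 0.10, adjusted p = 0.0044), a 1.32-fold rise. In LW the TN arrays read 12.94 to 13.47 and the HS arrays 13.40 to 14.03, so that 5 of 6 HS arrays exceeded every TN array. All 10 COL6A3 probes had a difference above 0, from 0.01 to 0.43, and 6 of them were called, the identical pair included.

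COL3A1, the chain of type III collagen, ranged from 13.95 to 15.83 (median 15.24) on TN arrays and from 15.25 to 15.94 (median 15.54) on HS arrays. It rose by 0.33 (SE 0.09, adjusted p = 0.011, 1.26-fold), and 16 of 17 HS arrays were above the TN mean of their breed. Among F1 pigs the TN values were 14.99, 15.01, 15.03, 15.03, 15.05 and 15.27 and the HS values 15.27, 15.36, 15.60, 15.62 and 15.74. The F1 groups met at 15.27 without crossing. Its second probe gave a difference of 0.37 (SE 0.09, adjusted p = 0.0078).

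COL5A1, which codes for a chain of the fibril-regulating type V collagen, ranged from 9.17 to 10.44 (median 9.77) on TN arrays and from 9.69 to 10.62 (median 10.16) on HS arrays. The groups overlapped over most of this range. The rise was 0.31 (SE 0.10, adjusted p = 0.028, 1.24-fold), with 14 of 17 HS arrays above the TN mean of their breed. The 2 other kept probes of COL5A1 gave 0.17 and 0.22 and were not called. Its partner chain COL5A2 had a difference of 0.23 (SE 0.10, adjusted p = 0.10) by its brightest probe and was not called, while 2 of its 3 other probes were, at 0.23 (adjusted p = 0.023) and 0.28 (adjusted p = 0.044).

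The type I chains, the main fibril formers, varied more from array to array than the called genes. COL1A1 ranged from 13.09 to 15.57 (median 15.09) in TN and from 14.67 to 15.83 (median 15.44) in HS, a difference of 0.36 (95% CI 0.07 to 0.64, adjusted p = 0.079), with 15 of 17 HS arrays above the TN mean of their breed. COL1A2 ranged from 13.14 to 15.35 (median 14.84) in TN and from 14.24 to 15.62 (median 15.01) in HS, a difference of 0.25 (95% CI -0.03 to 0.52, adjusted p = 0.22). Neither passed the threshold. The other type VI chain, COL6A1, had a difference of 0.17 (adjusted p = 0.16). Its 2 probes differed in sign, the dimmer one reading -0.10 (adjusted p = 0.55).

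The basement membrane chains showed no difference beyond the spread between arrays. COL4A1 differed by -0.07 (95% CI -0.26 to 0.11, adjusted p = 0.62), COL4A2 by 0.05 (95% CI -0.16 to 0.26, adjusted p = 0.78) and COL15A1 by -0.12 (95% CI -0.42 to 0.18, adjusted p = 0.63), and the signs of all 3 turned under at least 1 alternative setting. COL4A1 and COL4A2 are neighbours in the RefSeq gene table of the pig (Sscrofa11.1), with no protein-coding gene between them, as are COL3A1 and COL5A2. Whether the basement membrane chains differed from the fibrillar ones in their response was not tested.

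**Figure D1:**
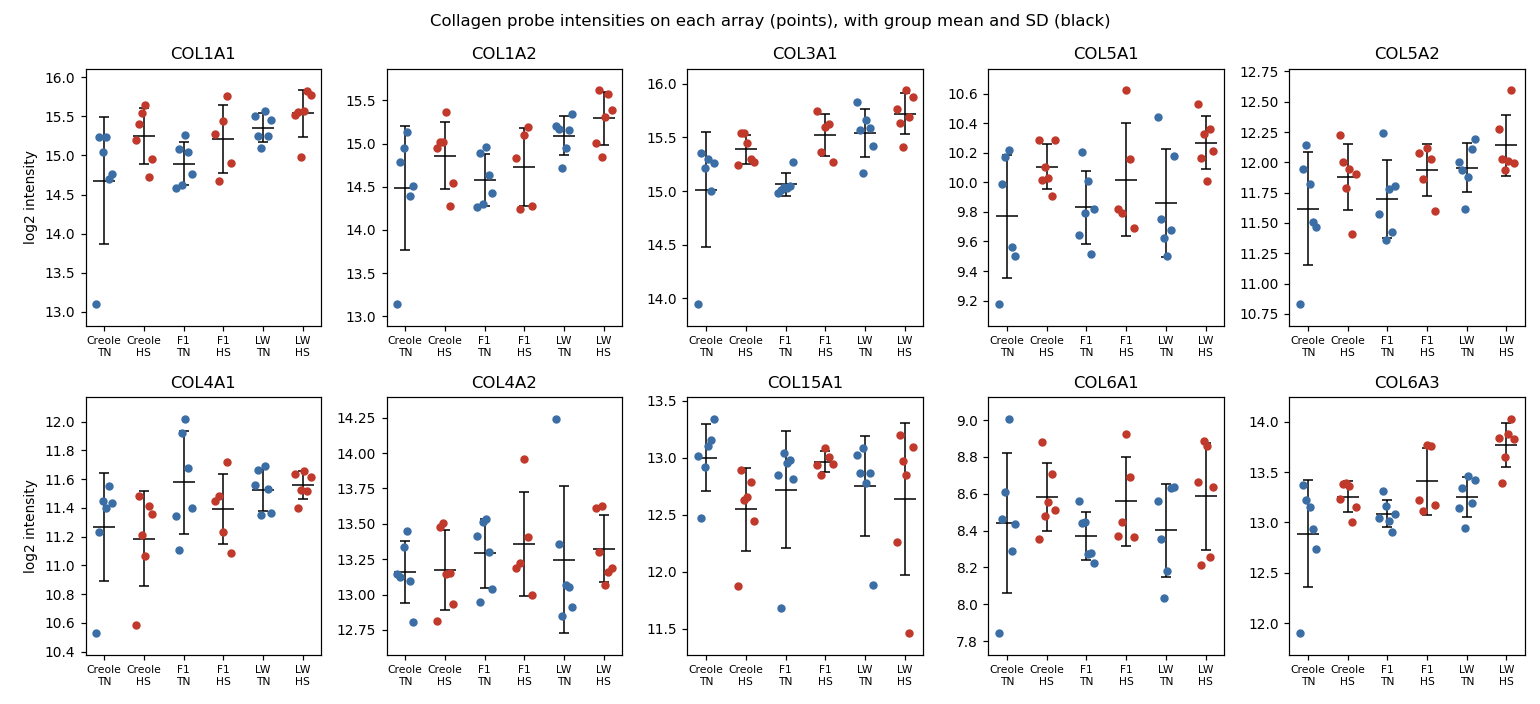
Log2 intensity of the 10 collagens on each of the 35 arrays (points, TN in blue and HS in red; LW, Large White), with the mean and SD of each group in black; each panel has its own vertical axis, which does not start at 0. COL6A3 in LW HS lies at 13.40 to 14.03, and 1 Creole TN array lies lowest of all arrays for COL1A1, COL1A2, COL3A1, COL4A1, COL5A1, COL5A2, COL6A1 and COL6A3.

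**Figure D2:**
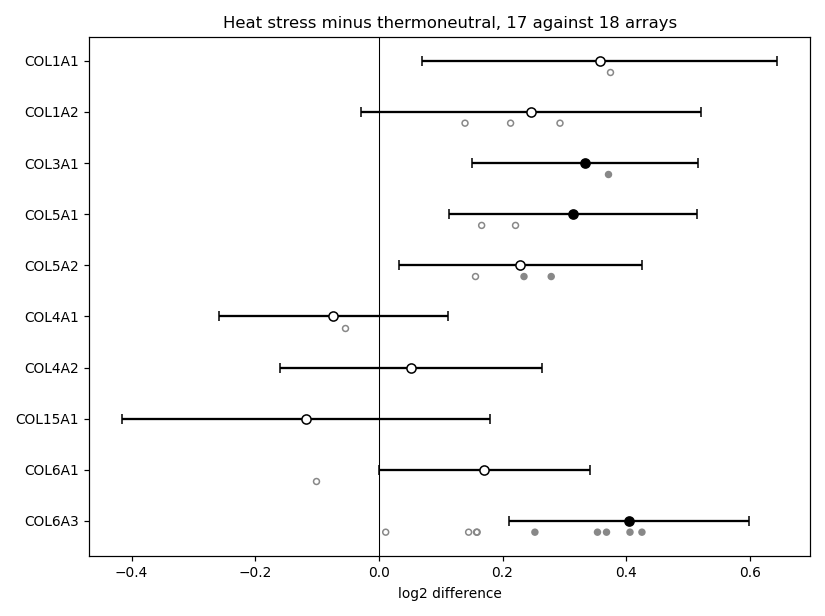
Log2 difference between HS and TN arrays for each collagen (black circle, with the 95% CI) and for its other kept probes (grey circles below it); filled circles had an adjusted p under 0.05. COL6A3, COL3A1 and COL5A1 are filled at 0.40, 0.33 and 0.31, while COL4A1, COL4A2 and COL15A1 lie near 0.

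The array brightness moved with temperature. Over the 18 TN arrays the 75th percentile of raw log2 intensity averaged 9.05 (SD 0.17), and over the 17 HS arrays 9.24 (SD 0.24). With this brightness as a covariate 2092 probes were called over the array, against 6654 without it. COL6A3 was then the only collagen called (0.35, adjusted p = 0.044), with COL3A1 at 0.32 (adjusted p = 0.055) and COL5A1 at 0.32 (adjusted p = 0.089). With 75th percentile scaling, where 9320 probes were called over the array, COL3A1 fell short as well (0.23, adjusted p = 0.063).

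The Creole TN array named replicate 1 stood apart in the fibrillar collagens, at 13.09 for COL1A1 where the next Creole TN array read 14.70. The mean of the 10 collagens, each centred on its own mean, was -0.98 on it and had a median of -0.13 over the Creole TN group. Its mean of 13 fibroblast markers was 9.56, where no other array was under 10.08, and its mean of 12 leukocyte markers was 7.80, where no other array was under 8.34. Without this array COL6A3 (0.34, adjusted p = 0.0038) and COL3A1 (0.26, adjusted p = 0.0058) were called and COL5A1 was not (0.27, adjusted p = 0.0502). The differences of COL1A1 and COL1A2, which were not called, came to 0.25 and 0.15 without it.

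The arrays were spread over 5 slides. Within slides 1 to 4, each with 4 HS and 4 TN arrays, COL6A3 was higher in HS by 0.49, 0.29, 0.75 and 0.29, and COL3A1 by 0.50, 0.27, 0.64 and 0.16. COL5A1 was higher by 0.29, 0.20, 0.41 and 0.38. These are plain differences of means within a slide, and breeds were not balanced. Slides 1 and 2 each held 2 Creole TN arrays against 1 Creole HS array, with Creole TN replicate 1 on slide 1. Slides 2 and 3 each held 2 LW HS arrays against 1 LW TN array. Slide 4 held 2 Creole HS arrays against 1 Creole TN array. The fifth slide held 1 Creole HS array and 2 LW TN arrays and gave -0.15 for COL6A3, -0.23 for COL3A1 and 0.36 for COL5A1. With the slide as a block all 3 genes were called, at 0.40, 0.33 and 0.32.

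The question of whether breeds differed in this response was addressed with a fit of 1 mean per group. The HS minus TN difference of COL6A3 was 0.37 in Creole, 0.32 in F1 and 0.52 in LW pigs, and that of COL3A1 was 0.38, 0.46 and 0.18. COL1A1 had 0.57, 0.32 and 0.18, and COL5A1 had 0.34, 0.19 and 0.41. COL15A1 had -0.45 in Creole, 0.25 in F1 (where TN replicate 2 lay low, at 11.69) and -0.11 in LW.

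No collagen was called within a breed by limma. At an unadjusted p under 0.05 there were 3 of 10 in Creole, 1 in F1 and 2 in LW, beside 8946, 3444 and 6893 of all 41517 probes at that p, so the members' counts were near the background. At the adjusted p the share of all probes called was 1.91% in Creole, 0.00482% in F1 and 0.00482% in LW. The breed by temperature interaction (moderated F test of limma) called 0 of 41517 probes (0%), with 1593 at an unadjusted p under 0.05, none of them the value of a collagen. The smallest interaction p among the collagens was 0.158, for COL15A1 (adjusted p = 0.963). These tests do not show that the breeds responded alike: in LW, the 95% CI of the COL3A1 difference ran from -0.14 to 0.49, and in F1 from 0.13 to 0.79.

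**Figure D3:**
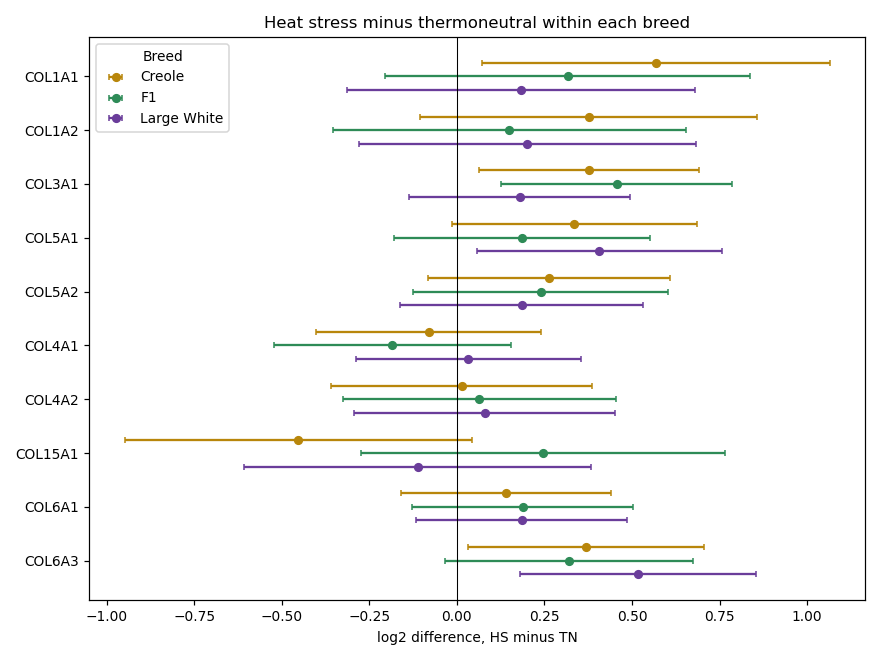
Log2 difference between HS and TN arrays within each breed for the 10 collagens, with 95% CIs from the fit of 1 mean per group (Creole 6 against 6 arrays, F1 5 against 6, LW 6 against 6). The 3 intervals overlap for every gene, and COL15A1 has the widest split of signs, from -0.45 in Creole to 0.25 in F1.

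Between the parent breeds, COL3A1 and COL6A3 were lower in Creole than in LW, and no collagen was higher. These are 2 of 10 genes called lower, where 1.92% of the probes tested were called lower, 1.73% higher and 3.64% in either direction. Of the calls over the array 47.4% were higher with quantile normalisation and 52.1% with 75th percentile scaling. The share was 36.3% with median scaling and 27.2% with spike-in scaling. The difference was below 0 for 8 of 10 collagens, with a median of -0.31 (0.01 over all probes tested). The comparison uses 12 arrays of each breed, with temperature in the model.

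COL3A1 ranged from 13.95 to 15.54 (median 15.28) in Creole and from 15.17 to 15.94 (median 15.65) in LW. The ranges overlapped, yet 0 of 12 Creole arrays exceeded the LW mean at the same temperature. The difference was -0.43 (SE 0.11, adjusted p = 0.019), and -0.40 (adjusted p = 0.044) by the other probe. COL6A3 ranged from 11.90 to 13.40 (median 13.19) in Creole and from 12.94 to 14.03 (median 13.45) in LW, a difference of -0.44 (SE 0.11, adjusted p = 0.024), with 1 of 12 Creole arrays above the LW mean at its temperature.

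The type I chains did not pass the test between the breeds: COL1A2 at -0.52 (95% CI -0.85 to -0.19, adjusted p = 0.071) and COL1A1 at -0.48 (95% CI -0.83 to -0.14, adjusted p = 0.12). Without Creole TN replicate 1 they were at -0.39 and -0.32. Of the 3 other COL1A2 probes 2 passed, narrowly, 1 of them the helix probe printed above (-0.41, adjusted p = 0.0495), the other at -0.52 (adjusted p = 0.047). COL4A1 differed by -0.32 (adjusted p = 0.11) and COL5A2 by -0.30 (adjusted p = 0.17), the latter with 2 other probes called, at -0.37 (adjusted p = 0.0014) and -0.33 (adjusted p = 0.022). COL4A2, COL5A1, COL6A1 and COL15A1 lay between -0.13 and 0.08.

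The COL6A3 probe of the N-terminal domain had the smallest adjusted p of the 31 kept probes in Creole against LW. It read 9.61 to 10.07 in Creole TN, 10.02 to 10.51 in LW TN, 9.81 to 10.42 in Creole HS and 10.44 to 10.95 in LW HS. At HS the breeds did not overlap. The difference was -0.56 (SE 0.08, adjusted p = 5.6e-05) over both temperatures, -0.44 (adjusted p = 0.0497, or 0.078 when TN arrays alone were fitted) at TN and -0.69 (adjusted p = 0.0014) at HS. Across the 10 COL6A3 probes the breed difference ran from -0.56 to -0.26, and 5 were called. The N-terminal probe was also the 1 collagen probe called between F1 and Creole, 0.41 higher in F1 (adjusted p = 0.013), where F1 arrays read 10.11 to 10.73. This call was lost under median scaling (0.39, adjusted p = 0.058), under spike-in scaling (0.35, adjusted p = 0.48) and on TN arrays only (0.45, adjusted p = 0.15). This probe was singled out after its values were seen, and a base difference between breeds under a probe was not tested.

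Taken at each temperature alone, no collagen was called between Creole and LW by limma, where 0.997% of all probes were called at TN and 0.296% at HS. At an unadjusted p under 0.05 there were 4 of 10 collagens and 5393 of 41517 probes at TN, and 3 collagens and 2975 probes at HS. In the N-terminal probe alone a call was made at each temperature. Without Creole TN replicate 1, COL3A1 (-0.33, adjusted p = 0.011) and COL6A3 (-0.35, adjusted p = 0.032) were called between the breeds as before.

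In F1 pigs no collagen was called against LW or against Creole by limma. Against LW the F1 values were lower by 0.53 for COL1A2 (95% CI of the difference -0.87 to -0.19, adjusted p = 0.17), by 0.39 for COL1A1 (95% CI -0.75 to -0.04, adjusted p = 0.41) and by 0.34 for COL3A1 (95% CI -0.57 to -0.12, adjusted p = 0.18), where 0.525% of all probes were called. At an unadjusted p under 0.05 there were 4 of 10 collagens and 4371 of 41517 probes. COL1A2 was below the LW mean of the same temperature on all 11 F1 arrays. Without Creole TN replicate 1, which enters through the shared spread and the shared temperature term, COL1A2 (-0.54, adjusted p = 0.039) and COL3A1 (-0.35, adjusted p = 0.020) were called. Against Creole the F1 differences lay between -0.05 and 0.26, where 0.477% of all probes were called. At an unadjusted p under 0.05 there were 1 of 10 collagens and 3685 of 41517 probes. Against the midpoint of the parent breeds they lay between -0.27 and 0.11, where 0.246% of all probes were called, and at an unadjusted p under 0.05 there were 0 of 10 collagens and 3053 of 41517 probes. The Creole and LW arrays are shared by these comparisons.

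**Figure D4:**
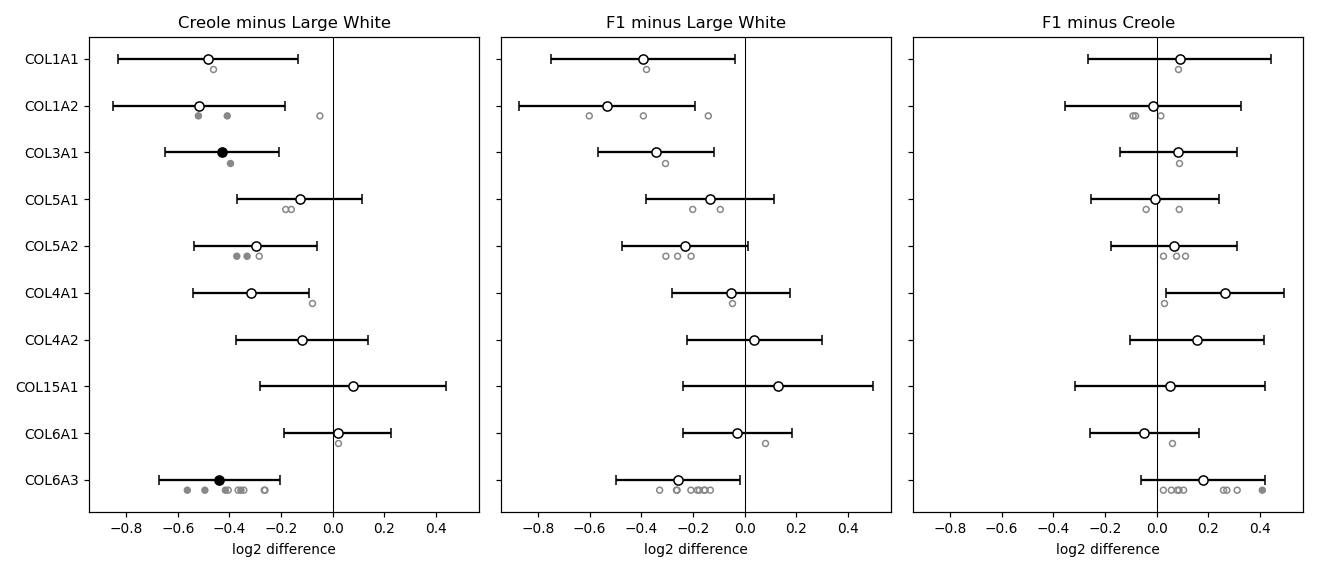
Log2 differences between breeds for each collagen (black circle, with the 95% CI) and its other kept probes (grey circles below it), with temperature in the model; filled circles had an adjusted p under 0.05. COL3A1 (-0.43) and COL6A3 (-0.44) are filled in Creole minus Large White, and the 1 filled circle in F1 minus Creole is the N-terminal COL6A3 probe at 0.41.

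Likeness across arrays was taken as a description over 35 arrays after subtraction of the group mean (the 10 genes share library, array and brightness). Pairs of fibrillar chains had a Pearson r above 0, from 0.42 to 0.94. COL1A1 and COL1A2, the partner chains of type I collagen, had the highest Pearson r of the 45 pairs, 0.94, and 0.89 without the 2 arrays farthest from the median of COL1A1. In each pair the 2 arrays left out were picked only by the gene that is first in alphabetical order. COL5A1 and COL5A2, the type V partners, had 0.71 and then 0.78. COL3A1 had 0.83 and then 0.61 with COL1A1, but 0.57 and then 0.28 with COL5A2. With COL5A1 it had 0.42 and then 0.19. COL6A1 and COL6A3, of type VI, had 0.57 and then 0.38, and the type IV partners COL4A1 and COL4A2 had only 0.29 and then 0.27. The median over the 45 pairs was 0.42. COL15A1 had a negative r with 5 of the other 9 genes, down to -0.61 with COL5A2 and -0.35 with COL5A1, and a positive r with 4, up to 0.39 with COL4A1 and 0.32 with COL4A2. It was the only member whose r with the mean of the others was below 0 (-0.21). Its values also had long lower tails, at 11.46 in LW HS, 11.69 in F1 TN, 11.87 in Creole HS and 11.89 in LW TN, on arrays whose group medians were 12.64 to 12.91.

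Among 9519 other genes with a symbol and a kept probe, the 5 closest to the mean of the 10 collagens over the 35 arrays, group differences included, were COL16A1 (r = 0.894), COL14A1 (r = 0.876), CCDC80 (r = 0.874), CERCAM (r = 0.836) and C1QTNF5 (r = 0.832). COL16A1 and COL14A1 are fibril-associated collagens, and CCDC80 is a secreted matrix protein. Without the 2 arrays farthest from the median these r values were 0.83, 0.78, 0.80, 0.77 and 0.73.

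**Figure D5:**
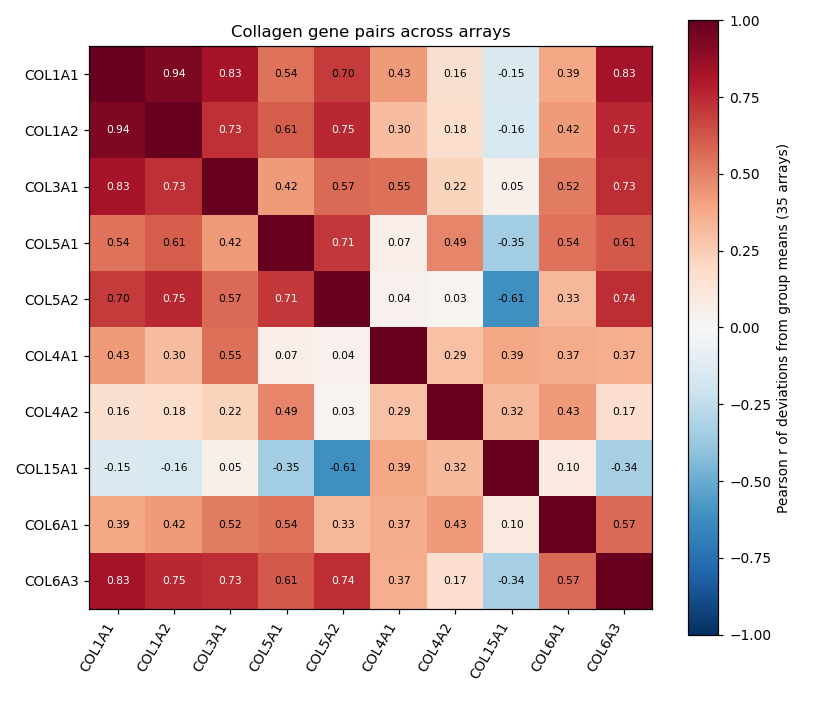
Pearson r between collagen pairs over 35 arrays, computed on deviations from the group mean (colour from -1 in blue to 1 in red, with the value in each cell). Among the fibrillar chains and COL6A3 the values run from 0.42 for COL3A1 with COL5A1 to 0.94 for COL1A1 with COL1A2. COL15A1 is negative with 5 of the 9 other genes.

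Other genes of the collagen pathway, taken from a list chosen with earlier results of these data known, were set beside the members. Of 19 other collagens measured, 6 rose in HS and none fell, with a median difference of 0.09 against -0.03 over 9529 genes. Over all probes tested 7.73% were called higher and 8.30% lower. COL8A1, a short-chain collagen of vessel walls, rose by 1.04 (adjusted p = 0.0010), COL12A1, which coats type I fibrils, by 0.58 (adjusted p = 0.0040), and COL14A1, another coat of fibrils, by 0.42 (adjusted p = 0.043), a call lost in 20 of 35 fits that left out 1 array. Of 19 genes for folding, processing and cross-linking 4 rose and none fell, with a median of 0.21. P4HA3, a prolyl hydroxylase subunit, rose by 0.82 (adjusted p = 0.000245), LOXL2, a cross-linking enzyme, by 0.46 (adjusted p = 0.014), and FKBP10, a collagen chaperone, by 0.43 (adjusted p = 0.016). With array brightness as a covariate 2 of the other collagens (COL8A1 and COL12A1) and 1 of these 19 genes (P4HA3) were called higher, beside 2092 calls over the array.

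Of 13 genes of collagen breakdown 4 rose and 1 fell, where 7.73% of all probes tested were called higher and 8.30% lower. Whether the counts of this and the next lists differ from those shares was not tested. The membrane protease MMP14 rose by 0.44 (adjusted p = 0.019), its partner inhibitor TIMP2 by 0.37 (adjusted p = 0.0015) and CTSK, the collagen-cutting cathepsin, by 0.36 (adjusted p = 0.026), while MMP3 fell by 0.29 (adjusted p = 0.0086). With brightness as a covariate MMP14 (0.24, adjusted p = 0.25), CTSK (0.20, adjusted p = 0.29) and MMP3 (-0.16, adjusted p = 0.15) were not called. None of 5 collagen receptors was called (median -0.05). Among 10 basement membrane partners, SPARC, a collagen-binding glycoprotein, rose by 0.32 (adjusted p = 0.0029), whereas HSPG2 (perlecan) fell by 0.26 (adjusted p = 0.013) and DAG1 (dystroglycan) by 0.30 (adjusted p = 0.0044). Neither HSPG2 (-0.19, adjusted p = 0.14) nor DAG1 (-0.20, adjusted p = 0.077) was called with brightness as a covariate, and DAG1 was not called under spike-in scaling (-0.15, adjusted p = 0.18). Of 17 genes of the TGF-beta pathway 3 rose, led by LTBP2 at 0.66 and TGFB3 at 0.61 (adjusted p = 0.00022 and 0.00014), and LTBP3 fell by 0.14 (adjusted p = 0.029), with a median of -0.03. The LTBP3 call was lost under median scaling (-0.11, adjusted p = 0.063), under spike-in scaling (-0.03, adjusted p = 0.78) and with brightness (-0.08, adjusted p = 0.30).

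Some markers of other cell types were called between temperatures beside the collagens. Over all probes tested 7.73% were called higher and 8.30% lower, and the counts of these short lists were not tested against those shares. Of 13 fibroblast markers 5 rose and none fell (median 0.32): FBLN1 by 0.66, FSTL1 by 0.53, and FAP, PI16 and VIM. FBLN1 and FAP belong to the shorter set of fibroblast markers written down with the design of the tests, and FSTL1, PI16 and VIM do not. The VIM difference was 0.63 to 0.81 over the 35 fits that left out 1 array. With brightness as a covariate VIM was not called (0.34, adjusted p = 0.33). The mean of the 13 ranged from 9.56 to 10.81 on TN arrays and from 10.38 to 11.07 on HS arrays. Of 12 leukocyte markers 5 rose and none fell (median 0.72), led by LYZ at 2.26 (adjusted p = 0.0033), with a mean over the list of 7.80 to 10.37 on TN and 9.07 to 10.69 on HS arrays. With brightness as a covariate 3 fibroblast markers and 1 leukocyte marker, LYZ, were called higher, beside 2092 calls over the array. Of 12 skeletal muscle markers 1 was called higher (DES, a call lost under 75th percentile scaling and of opposite sign with the processed signal) and 2 fell (TTN and MYH2). The scaling moved these counts, to 9 lower and 0 higher under 75th percentile scaling (median -0.23) and 6 lower and 0 higher under median scaling (median -0.16), and with brightness as a covariate neither TTN nor MYH2 was called. None of 6 adipocyte, 6 smooth muscle and pericyte and 6 nerve sheath markers was called, and 1 of 7 endothelial markers (VWF) and 2 of 4 blood cell markers (HBB and AHSP) fell. The AHSP call was lost in 6 of 14 alternative settings and in 20 of 35 fits that left out 1 array. Their part in the collagen differences was not tested.

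Between Creole and LW the same lists gave mostly lower values in Creole, where 1.92% of all probes tested were called lower and 1.73% higher. Of 19 other collagens 3 were called lower, COL16A1 (-0.51, adjusted p = 0.035), COL27A1 (-0.39, adjusted p = 0.0038) and COL6A2, a further type VI chain (-0.34, adjusted p = 0.042). The COL16A1 call was lost in 3 of 13 alternative settings, the slide as a block included, and in 7 of 35 fits that left out 1 array. The COL6A2 call was lost in 7 of 13 alternative settings and in 15 of 35 such fits. PCOLCE, which speeds the trimming of procollagen ends, was lower in Creole (-0.50, adjusted p = 0.011), as were the collagen receptor DDR2 (-0.48, adjusted p = 0.0012) and the laminin chain LAMC1 (-0.51, adjusted p = 0.00037). No gene of collagen breakdown or of the TGF-beta pathway was called between the breeds. No fibroblast or leukocyte marker was called (medians -0.16 and -0.21), whereas 2 of 7 endothelial markers, KDR (-0.96) and PECAM1 (-0.40), and the pericyte marker RGS5 (-0.45) were lower in Creole. At TN the mean of the 7 endothelial markers ranged from 9.85 to 10.26 on Creole and from 10.18 to 10.76 on LW arrays, and it reached at most 10.28 on any Creole array. The part of these cell types in the collagen differences was not tested.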

How the data were processed

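Cy3-labelled cRNA of each muscle was hybridised by the authors to 1-colour Agilent porcine arrays and read with Feature Extraction (10.10.1.1 in the headers). In the deposited scanner files there are median pixel intensity values per spot on a linear scale, with flags for outlier and well above background spots. A deposited value table gives log2 values of 40649 probes after quantile normalisation and filtering by the authors. It served as an alternative, and all 35 columns correlated best with the array they are named for.

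Here the median intensity of non-control spots was quantile-normalised and log2 was taken, 105 outlier spots were set to missing (none of a collagen), and spots of a probe were averaged. No spot was saturated. A probe was kept if well above background on 75% or more of the arrays in any group (41517 of 60305). On an array 58.4% to 75.9% of probes were well above background, and the number of arrays limits the precision. Probes were named by the gene name in the files, and naming through accessions added 0 collagen probes.

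Fits were made in R 4.3.3 by limma (version 3.58.1, eBayes), and p-values were adjusted by Benjamini-Hochberg over all kept probes, with 0.05 as threshold. Temperature, breed and midpoint contrasts came from a model with breed and temperature as additive terms, as in the fixed terms of the study methods. Within-breed, within-temperature and interaction contrasts came from a model with 1 mean per group. Pen, slaughter day, father and mother, which are random terms in the study model, were not used. Littermates and pen mates therefore count as independent, and the p-values may be too small. Replicate numbers follow deposition order and pair nothing. Simulated data held 41465 probes, 200 of them changed by 1 log2 unit. Of these 200, 98.5% were recovered between temperatures (9 false calls) and 96.5% between Creole and LW (7 false calls). For HS against TN within a breed the share was 88.5% in Creole, 89% in F1 and 89.5% in LW. For Creole against LW it was 90.5% at TN and 85% at HS. Recovery of differences below 1 log2 unit, such as those of the 10 collagens, was not tested.

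All 10 collagens are named, and of each other list up to 3 genes called per direction with the largest difference. The members and the lists were chosen with earlier results of these data known. Alternatives were other scalings, background correction, the processed signal, the value table, other filters, the slide as a block, array weights, brightness as a covariate, the mean of all probes of a gene, other models, and leaving out each array.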

Additional observations from a re-analysis of the deposited data

Results flagged for a closer look

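A gap test (Dixon, at 95%) was run on the highest and lowest array of each of 60 combinations of collagen and group, of which chance gives about 3 past the limit, and 9 were past it. Creole TN replicate 1 was the lowest array of its group in 4 of them, with gap ratios of 0.750 for COL1A1, 0.631 for COL1A2, 0.750 for COL3A1 and 0.685 for COL4A1. COL15A1 had a low array in F1 TN (replicate 2, ratio 0.830) and in LW TN (replicate 6, ratio 0.742). COL1A1 had a low array in LW HS (replicate 3, ratio 0.630), COL3A1 a high array in F1 TN (replicate 6, ratio 0.770) and COL4A2 a high array in LW TN (replicate 1, ratio 0.635).

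The COL15A1 differences between HS and TN had opposite signs in Creole and F1 pigs: every HS array lay below the TN mean in Creole (mean difference -0.45) and above it in F1 (mean difference 0.245). The F1 TN mean of 12.72 includes the low replicate 2 named above, at 11.69. The F1 TN median was 12.90, inside the F1 HS range of 12.85 to 13.09. The interaction test over the 3 breeds gave an adjusted p of 0.963 for this gene, and the difference between these 2 breeds alone was not tested.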

How the results depend on the processing

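Over the alternatives, COL6A3 kept its call in HS against TN in all 14 settings and in all 35 fits without 1 array. The number of collagens called in HS against TN was 3, beside 6654 calls over the array. It was 1 when array brightness was a covariate (2092 calls over the array), and 2 under 75th percentile scaling (9320) and with the processed signal (7286). It was 4 under median scaling (6653) and spike-in scaling (4734), and 2 to 4 without 1 array each (5257 to 8558). In Creole against LW the number was 2, beside 1513 calls over the array. It was 1 under spike-in scaling (893 calls over the array), with COL6A3 lost (-0.51, adjusted p = 0.055), and 0 on TN arrays only (220). It was 3 with the mean of all kept probes of a gene (1496) and 2 to 3 without 1 array each (1210 to 1774). In F1 against LW it was 0, with 1 under spike-in scaling and 1 with array weights (COL3A1 in both), and 0 to 2 without 1 array each (2 without Creole TN replicate 1). Within F1 it was 0, with 1 with array weights, and for Creole against LW at TN 0 to 1 without 1 array each (1 without LW TN replicate 3). With the mean of all kept probes in place of the brightest, COL5A1 was not called in HS against TN (0.23, adjusted p = 0.065), whereas COL5A2 was called there (0.22, adjusted p = 0.035) and in Creole against LW (-0.32, adjusted p = 0.035). In HS against TN COL6A1 was called under median scaling (0.24, adjusted p = 0.041) and spike-in scaling (0.32, adjusted p = 0.022), and COL5A2 without F1 TN replicate 2 (0.26, adjusted p = 0.045). COL1A1 was called without LW HS replicate 3 (0.40, adjusted p = 0.048) and COL1A2 in Creole against LW without Creole TN replicate 4 or Creole HS replicate 4 (-0.57 in both).

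Among the collagens and the called genes of the other lists, signs turned only for differences that passed no test, with the exception of DES (0.24, against -0.0030 with the processed signal). In HS against TN they turned for COL4A2 (-0.010 under 75th percentile scaling, -0.022 with the processed signal), COL4A1 (0.068 under spike-in scaling) and COL15A1 (0.12 with brightness). In Creole against LW they turned for COL6A1 (-0.0090 under median scaling, -0.033 under spike-in scaling, -0.036 to 0.074 without 1 array each) and COL15A1 (-0.0086 under spike-in scaling, -0.032 to 0.16 without 1 array each). The causes were not tested. Naming probes through accessions added no collagen probe and gave no further value. No paired analysis was possible because the replicate numbers follow the order of deposition. The number of arrays, 5 or 6 a group, limits what within-breed tests can show.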
